A study of Homo sapiens with 2 samples.

Results

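The aminoacyl-tRNA synthetase genes were examined as a list of 35 genes chosen by name, 19 for enzymes of the cytoplasm and 16 for enzymes of mitochondria, out of 38690 annotated genes of which 20098 were protein-coding. The MYB-family transcription factor MYBL2, which takes part in the cell cycle, was immunoprecipitated from A673, an established Ewing sarcoma cell line labelled as wild type, and the recovered DNA was sequenced (ChIP-seq). The antibody is labelled anti-MYBL2, while the methods text describes it as recognising the phosphorylated, activated protein. The comparison library was input, sheared chromatin of the same line without immunoprecipitation. There was 1 ChIP library and 1 input library, with no replicate, so no test was made. Intervals of fragments and fold enrichment cover counting error only. Intervals of shares treat the genes of a list as independent draws, although they were chosen by name. No interval covers variation between libraries.

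The data were a list of 66954 peaks on the hg19 genome. A peak was assigned to a gene when at least 1 of its bases lay within 1000 bp of any transcription start site (TSS) of that gene in the GENCODE annotation, and 103 peaks were assigned to the synthetase genes in this way. Fold enrichment is the ratio of ChIP fragments at the peak's summit to the local background expected from the input, with 1 added to each. The number of fragments over each summit (the pileup) was recovered from the deposited values and lay between 29 and 112 at the strongest promoter peaks of the 35 genes. The list gives no read total and no expression, so neither the cell type nor the activity of these genes was checked.

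Each synthetase joins an amino acid to the transfer RNAs that carry it to the ribosome. Animal cells hold a set of these enzymes for the cytoplasm and another for mitochondria, and both sets are encoded in the nucleus. Several cytoplasmic synthetases are bound into a multi-synthetase complex held together by scaffold proteins. Many cytoplasmic synthetase genes are also known targets of ATF4, the transcription factor that acts when amino acids run short and binds composite sites known as amino acid response elements.

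Of the motifs searched within 100 bp of the summit, this element, written TGATGNAA and sought on both strands, differed most in share between the compartments. It lay within 100 bp of the summit of the strongest promoter peak at 6 of 19 cytoplasmic genes (31.6%, exact binomial 95% interval 12.6 to 56.6), at 0 of 16 mitochondrial genes (interval 0 to 20.6), and at 1.06% of the 11941 protein-coding genes with a promoter peak. With the narrower 50 bp used for the other motifs it lay at 2 of 19 cytoplasmic genes, MARS1 and NARS1 (10.5%, interval 1.3 to 33.1), at 0 of 16 mitochondrial genes and at 0.54% of the strongest promoter peaks of all protein-coding genes, and the 100 bp search was chosen after seeing the data. The 6 sites are shown with 11 bases on either side, 5′ to 3′ on the strand that carries the word, in hg19 coordinates, and capitals mark the word.
CARS1 (chr11:3078637-3078666, plus strand): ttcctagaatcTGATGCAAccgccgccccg
GARS1 (chr7:30634450-30634479, minus strand): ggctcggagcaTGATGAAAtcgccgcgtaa
IARS1 (chr9:95055974-95056003, plus strand): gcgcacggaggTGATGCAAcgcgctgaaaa
MARS1 (chr12:57881836-57881865, minus strand): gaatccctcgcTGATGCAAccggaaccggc
NARS1 (chr18:55289036-55289065, minus strand): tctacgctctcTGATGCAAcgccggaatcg
TARS1 (chr5:33441062-33441091, minus strand): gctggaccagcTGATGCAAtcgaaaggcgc

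At 5 of these 6 genes the word read TGATGCAA, and at GARS1 it read TGATGAAA. Within 100 bp of the summit, TGATGCAA was thus found at 5 of 19 cytoplasmic genes (26.3%, interval 9.15 to 51.2). The share over all bound protein-coding genes was 0.402%. All 6 words lay close to the canonical TSS, the start of the transcript that the annotation takes as representative. The middle of the word was 1 bp from it at MARS1, 2 bp at CARS1, 5 bp at TARS1, 9 bp at IARS1, 18 bp at NARS1 and 30 bp at GARS1. The summits themselves stood 42 bp (NARS1) to 96 bp (CARS1) from the word. YARS1 had a word 7 bp from its canonical TSS, but its summit stood 680 bp away from the word. A search within 50 bp of the canonical TSS therefore found 7 of 19 cytoplasmic genes (36.8%, interval 16.3 to 61.6) and 0 of 16 mitochondrial genes, beside 0.427% of all bound protein-coding genes.

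In a wider search, 500 bp either side of the canonical TSS, the word was present at 11 of 19 cytoplasmic genes (57.9%, interval 33.5 to 79.7), the further ones being AARS1, EPRS1, HARS1 and WARS1. It was present at 2 of 16 mitochondrial genes (12.5%, interval 1.55 to 38.3), FARS2 and YARS2, and at 5.39% of all bound protein-coding genes. The intervals of the cytoplasmic and mitochondrial shares overlapped in each of these searches. A match of these letters is a description of the sequence and does not show which factor was bound there.

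**Figure D1:**
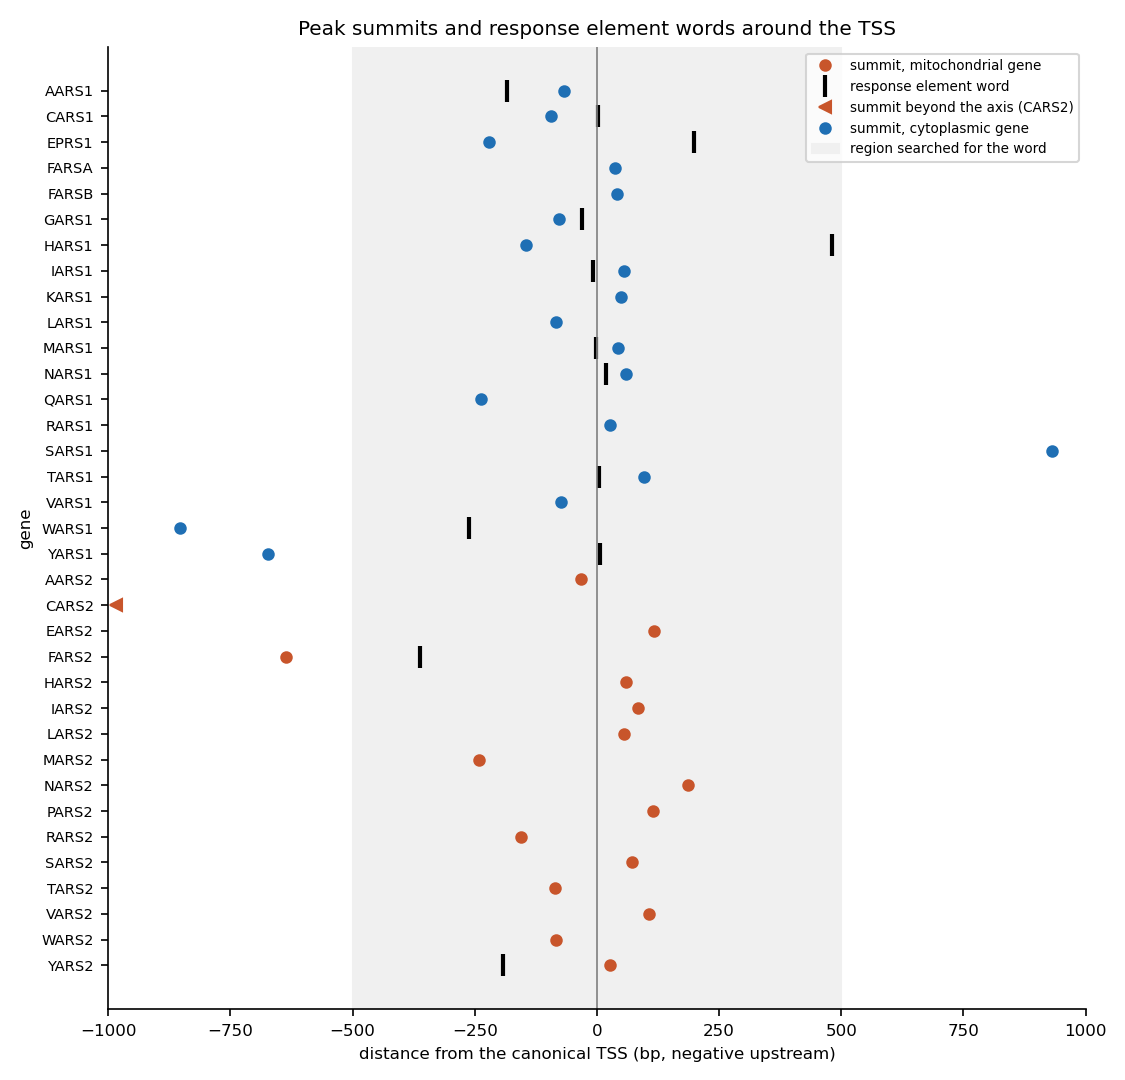
Positions of the strongest promoter peak's summit (circles, blue for cytoplasmic and red for mitochondrial genes) and of every TGATGNAA word (black ticks) relative to the canonical TSS of each gene, in bp, with the 500 bp searched on either side in grey. Words crowd the TSS at 7 cytoplasmic genes, the summits of SARS1, WARS1, YARS1 and the mitochondrial gene FARS2 stand over 500 bp from the TSS, and the summit of CARS2 lies beyond the axis, 7171 bp upstream.

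Every synthetase gene had a MYBL2 peak at its promoter: 35 of 35 genes (100%, interval 90 to 100), 19 of 19 cytoplasmic (interval 82.4 to 100) and 16 of 16 mitochondrial (interval 79.4 to 100). Among all protein-coding genes 59.4% had one. Promoters rich in CpG dinucleotides (observed over expected of at least 0.6 within 500 bp of the TSS) were bound more often, at 78.9%. Such a promoter was present at 32 of the 35 synthetase genes, 17 cytoplasmic and 15 mitochondrial, beside 13248 of the 20098 protein-coding genes. The exceptions were RARS1, WARS1 and TARS2, with ratios of 0.593, 0.355 and 0.584. A peak of at least 5-fold enrichment was present at all 35 genes, beside 49.6% of protein-coding genes.

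The compartments hardly differed in the strength of the strongest promoter peak. Its median fold enrichment was 11.1 over the cytoplasmic genes (quartiles 8.82 to 12.0, range 6.38 to 22.2) and 10.2 over the mitochondrial genes (quartiles 9.27 to 11.7, range 6.74 to 20.8), a difference of 0.891. The ranges overlapped almost entirely. Over all bound protein-coding genes the median was 8.67 (quartiles 5.94 to 12.1), and over those with a CpG-rich promoter 8.99. Of the 35 genes, 29 lay above the former median and 3, EPRS1, TARS2 and AARS1, above the 90th percentile of 16.9. In fragments, the median pileup was 53 at cytoplasmic summits (29 to 98) and 49.5 at mitochondrial summits (29 to 112).

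**Figure D2:**
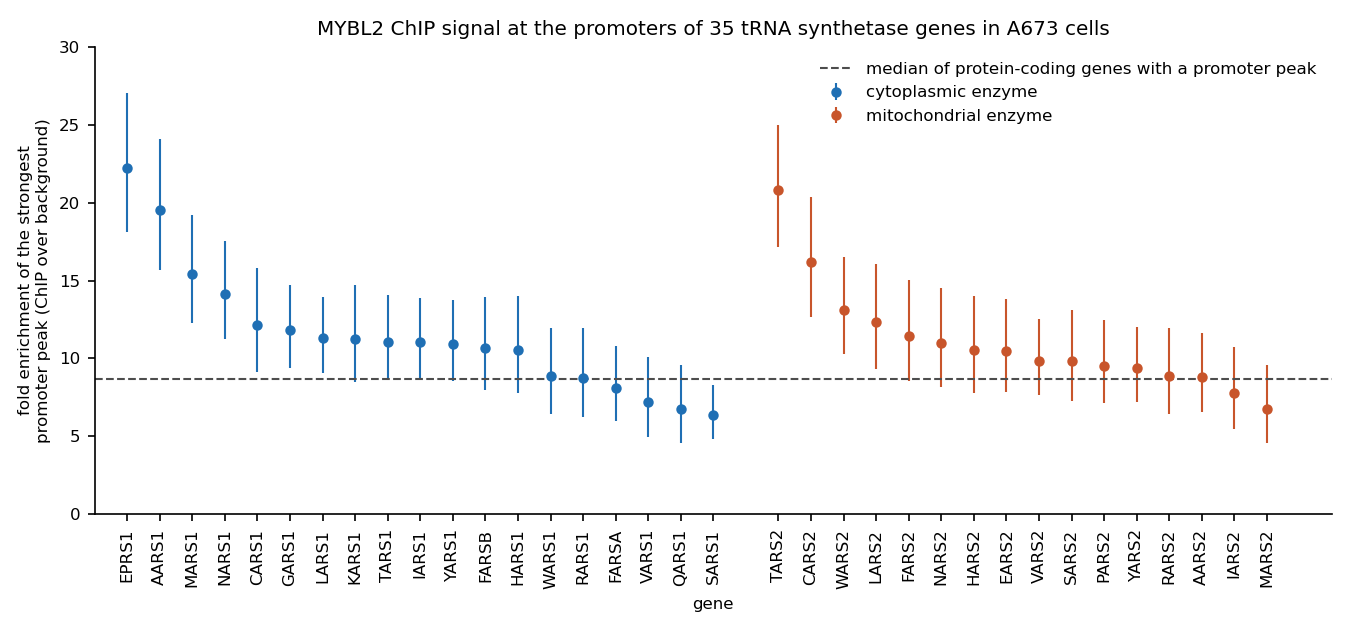
Fold enrichment of the strongest promoter peak of each of the 35 genes (points) with its exact Poisson 95% interval (bars, counting error only), in order of strength within the cytoplasmic (blue) and mitochondrial (red) genes. The dashed line is the median of all bound protein-coding genes, 8.67, and 15 of 19 cytoplasmic and 14 of 16 mitochondrial genes lie above it.

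EPRS1, which encodes the joint enzyme for glutamate and proline in the multi-synthetase complex, carried the strongest promoter peak of all 35 genes. It lay at chr1:220219169-220220371 (1203 bp) and reached 22.2-fold enrichment (interval 18.1 to 27.1), with 98 fragments over the summit (interval 79.6 to 119) and a deposited −log10 q of 99.8. Its summit stood 195 bp upstream of the nearest TSS and 220 bp upstream of the canonical TSS, and ranked 451 among all peaks. AARS1, the enzyme for alanine, came next among the cytoplasmic genes, with 19.5-fold (interval 15.7 to 24.1) at chr16:70321885-70323621 (1737 bp), from 86 fragments (interval 68.8 to 106) and a −log10 q of 82.8. Its summit was 5 bp from a TSS, and the peak also covered the promoter of DDX19B, an RNA helicase gene on the other strand. Among all bound protein-coding genes these enrichments stood at percentiles 95.5 and 93.2.

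MARS1, the methionine enzyme of the complex, had 15.4-fold enrichment (interval 12.3 to 19.2) at chr12:57881545-57882681 (1137 bp), with 78 fragments (interval 61.7 to 97.4) and a −log10 q of 66.2. The summit was 21 bp downstream of a TSS, and the same peak lay at the promoter of ARHGAP9 on the other strand. NARS1, the enzyme for asparagine, had 14.1-fold enrichment (interval 11.2 to 17.6) at chr18:55288813-55289535 (723 bp), with 79 fragments (interval 62.6 to 98.5) and a −log10 q of 63.4. Its summit fell on a TSS, at a distance of 0 bp. At the other end stood SARS1, QARS1 and VARS1, for serine, glutamine and valine, all below the median of bound protein-coding genes.

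SARS1 had 6.38-fold enrichment (interval 4.81 to 8.31) at chr1:109756312-109757978 (1667 bp). Its 53 fragments (interval 39.7 to 69.3) equalled the cytoplasmic median, but its local background of 7.46 fragments was the highest of the 35 genes, the lowest being 3.45. The −log10 q was 24.2, and the summit lay in an intron, 867 bp downstream of the nearest TSS. QARS1, of the multi-synthetase complex, reached 6.74-fold (interval 4.59 to 9.58) at chr3:49141913-49142554 (642 bp), with 29 fragments (interval 19.4 to 41.7), a −log10 q of 14.8 and a summit 77 bp from a TSS. VARS1 reached 7.19-fold (interval 4.96 to 10.1) at chr6:31762264-31763903 (1640 bp), with 31 fragments (interval 21.1 to 44), a −log10 q of 16.7 and a summit 74 bp upstream of its TSS. The intervals of these weakest promoters lay wholly below those of the 4 strongest.

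Between these ends the cytoplasmic genes were close to each other. CARS1, for cysteine, had 12.1-fold enrichment, GARS1, for glycine, 11.8, LARS1, for leucine, 11.3, TARS1, for threonine, 11.1, and IARS1, for isoleucine, 11.1. The subunits of the phenylalanine enzyme, FARSA and FARSB, had 8.12-fold and 10.6-fold enrichment, and RARS1, for arginine, had 8.76-fold. Their counting intervals overlapped throughout. GARS1 and KARS1, each of which serves both compartments from its single gene, had 11.8-fold and 11.3-fold enrichment, above both compartment medians. The 7 complex enzymes (EPRS1, IARS1, KARS1, LARS1, MARS1, QARS1 and RARS1) had a median of 11.3, beside 10.8 over the 12 cytoplasmic genes outside the complex. By structural class, medians were 10.2 over 18 class I genes and 10.8 over 16 class II genes.

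TARS2, the mitochondrial enzyme for threonine, had the strongest mitochondrial peak. It reached 20.8-fold enrichment (interval 17.2 to 24.97) at chr1:150459501-150460358 (858 bp), with 112 fragments (interval 92.2 to 135), the most of any synthetase gene, and a −log10 q of 109. The summit stood 80 bp upstream of the nearest TSS. The strongest cytoplasmic and mitochondrial promoters are printed from hg19, up to 100 bp on either side of the summit without annotated exons and in the direction of the gene, since they carried the highest enrichments of their compartments. Capitals mark CCAAT boxes, of which TARS2 had 2 in this stretch, while EPRS1 held none of the motifs searched.
EPRS1 (chr1:220219967-220220167, minus strand): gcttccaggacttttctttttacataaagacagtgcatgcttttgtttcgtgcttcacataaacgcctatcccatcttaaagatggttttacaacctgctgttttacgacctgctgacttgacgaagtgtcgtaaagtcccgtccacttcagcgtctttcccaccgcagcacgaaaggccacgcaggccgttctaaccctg
TARS2 (chr1:150459710-150459889, plus strand): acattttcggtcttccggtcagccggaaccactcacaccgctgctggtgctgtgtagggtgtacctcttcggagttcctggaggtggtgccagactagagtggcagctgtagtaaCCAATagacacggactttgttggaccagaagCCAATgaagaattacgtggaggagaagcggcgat

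The next mitochondrial value, 16.2-fold at CARS2 (interval 12.7 to 20.3), belonged to a promoter shared with another gene. The peak, chr13:111363927-111365917 (1991 bp, 71 fragments with interval 55.5 to 89.6, −log10 q of 62.6), lay at the promoter of ING1, a tumour suppressor gene on the other strand. Its summit was 235 bp downstream of the nearest CARS2 start and 7171 bp upstream of the canonical TSS. The peak over the canonical TSS of CARS2, chr13:111358067-111358914, had 9.21-fold enrichment from 40 fragments. WARS2, for tryptophan, had 13.1-fold enrichment (interval 10.3 to 16.5) at chr1:119682631-119684527 (1897 bp), with 72 fragments (interval 56.3 to 90.7), a −log10 q of 55.7 and a summit 83 bp upstream of a TSS. LARS2, for leucine, had 12.4-fold enrichment (interval 9.34 to 16.1) in the narrowest of the 35 peaks, chr3:45429937-45430325 (389 bp), with 54 fragments (interval 40.6 to 70.5), a −log10 q of 41.4 and a summit 13 bp from a TSS.

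MARS2, for mitochondrial methionine, was the weakest of its compartment, at 6.74-fold (interval 4.59 to 9.58). Its peak, chr2:198569299-198570362 (1064 bp), had 29 fragments (interval 19.4 to 41.7), a −log10 q of 14.8 and a summit 242 bp upstream of its only TSS. IARS2, for isoleucine, followed at 7.76-fold (interval 5.47 to 10.7), chr1:220267421-220267958 (538 bp), with 35 fragments (interval 24.4 to 48.7), a −log10 q of 19.8 and a summit 84 bp downstream of the TSS. AARS2, for alanine, had 8.83-fold enrichment (interval 6.58 to 11.6) at chr6:44280691-44281255 (565 bp), with 49 fragments (interval 36.3 to 64.8), a −log10 q of 29.7 and a summit 33 bp upstream. The other mitochondrial genes without a coding partner were NARS2 (asparagine) at 11.01-fold, VARS2 (valine) at 9.85, PARS2 (proline) at 9.52 and YARS2 (tyrosine) at 9.40, all within each other's intervals.

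A coding gene on the other strand shared the strongest promoter peak at 12 of 35 synthetase genes (34.3%), 6 of 19 cytoplasmic and 6 of 16 mitochondrial, beside 24.7% of all bound protein-coding genes. Such a peak cannot be divided between its genes. The median enrichment was 10.7-fold over the 12 and 10.6-fold over the 23 without a partner. HARS1 and HARS2, the cytoplasmic and mitochondrial enzymes for histidine, are neighbours on opposite strands and had the same peak, chr5:140070601-140071545 (945 bp), at 10.6-fold enrichment (interval 7.79 to 14.0) with 46 fragments (interval 33.7 to 61.4) and a −log10 q of 32.2. Its summit stood 1 bp from a HARS2 start and 22 bp from a HARS1 start.

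The remaining cytoplasmic genes of this kind were KARS1, YARS1 and WARS1. KARS1, for lysine, shared chr16:75681118-75682738 (1621 bp) with the telomere protein gene TERF2IP, at 11.3-fold (interval 8.47 to 14.7), 52 fragments (interval 38.8 to 68.2), a −log10 q of 37.6 and 8 bp from a TSS. YARS1, for tyrosine, shared chr1:33281754-33284394 (2641 bp) with S100PBP, at 10.9-fold (interval 8.56 to 13.7), 71 fragments (interval 55.5 to 89.6), a −log10 q of 48.6 and 0 bp from a TSS. That TSS was an alternative start, and the canonical one lay downstream of the summit within the same peak. WARS1, for tryptophan, shared chr14:100841654-100843184 (1531 bp) with WDR25, at 8.88-fold (interval 6.43 to 12.0), 41 fragments (interval 29.4 to 55.6), a −log10 q of 25.5 and 51 bp from a TSS, again an alternative start, with the summit 853 bp upstream of the canonical TSS.

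The other mitochondrial genes with a partner were EARS2, FARS2, RARS2 and SARS2. EARS2, for glutamate, shared chr16:23567870-23569449 (1580 bp) with UBFD1, at 10.5-fold (interval 7.82 to 13.8), 49 fragments (interval 36.3 to 64.8), a −log10 q of 33.9 and 110 bp from a TSS. FARS2, for phenylalanine, shared chr6:5260920-5262119 (1200 bp) with LYRM4, a gene of iron-sulfur cluster assembly, at 11.5-fold (interval 8.56 to 15.03), 50 fragments (interval 37.1 to 65.9), a −log10 q of 36.7 and 167 bp from a TSS. The partners of the last pair work in replication and in the mitochondrial ribosome. RARS2, for arginine, shared chr6:88299414-88300184 (771 bp) with the origin recognition gene ORC3, at 8.88-fold (interval 6.43 to 12.0), 41 fragments (interval 29.4 to 55.6), a −log10 q of 25.5 and 115 bp from a TSS. SARS2, for serine, shared chr19:39421079-39422099 (1021 bp) with MRPS12, a protein gene of the mitochondrial ribosome, at 9.85-fold (interval 7.24 to 13.1), 45 fragments (interval 32.8 to 60.2), a −log10 q of 30.0 and 66 bp from a TSS.

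Enzymes for the same amino acid in the 2 compartments formed 17 pairs, and neither compartment was the stronger throughout. The pairs were not all independent, since EPRS1 was paired with both EARS2 and PARS2, and FARS2 with both FARSA and FARSB. Enrichment was higher at the cytoplasmic gene in 7 pairs, higher at the mitochondrial gene in 9, and the histidine pair shared its peak. Counted by pileup, the cytoplasmic gene was higher in 9 of the 16 pairs whose 2 genes had different peaks. The counting intervals were apart in 5 pairs. In 4 of these the cytoplasmic gene was higher: EPRS1 over PARS2 by 2.34 times, MARS1 over MARS2 by 2.29, AARS1 over AARS2 by 2.21 and EPRS1 over EARS2 by 2.12. In the fifth, TARS1 stood at 0.533 times the enrichment of TARS2. In the remaining pairs, such as RARS1 and RARS2 at 8.76-fold and 8.88-fold, the intervals of fold enrichment overlapped, which does not show that the values were alike. By pileup, which is not set against the local background, 3 of them were also apart. IARS1 had 72 fragments (interval 56.3 to 90.7) and IARS2 35 (interval 24.4 to 48.7). VARS1 had 31 (interval 21.1 to 44) and VARS2 64 (interval 49.3 to 81.7), and WARS1 had 41 (interval 29.4 to 55.6) and WARS2 72 (interval 56.3 to 90.7).

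**Figure D3:**
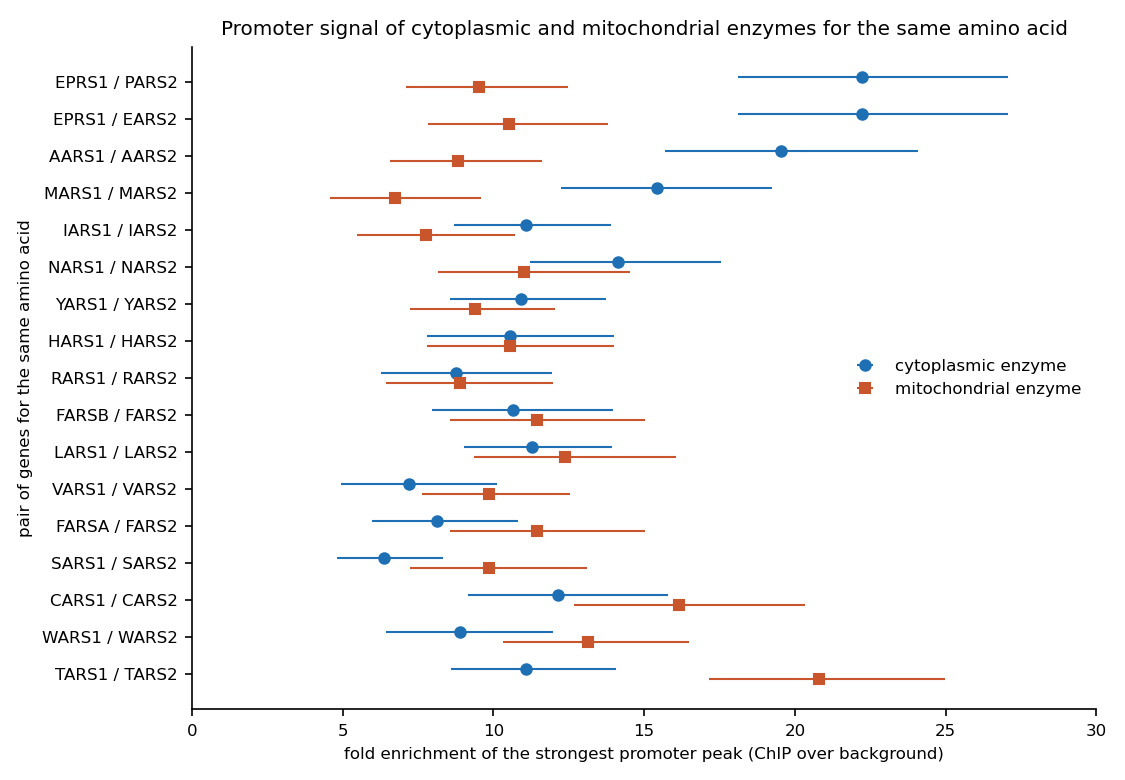
Fold enrichment of the strongest promoter peak at the cytoplasmic (blue circles) and mitochondrial (red squares) genes of 17 same-amino-acid pairs, with exact Poisson 95% intervals (counting error only), ordered by the difference. The intervals are apart at the 4 upper pairs, where the cytoplasmic gene is higher, and at the lowest, TARS1 and TARS2, where it is lower.

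Summits sat closer to a start site at the cytoplasmic genes. The summit was within 100 bp of the nearest TSS at 17 of 19 cytoplasmic genes (89.5%) and 10 of 16 mitochondrial genes (62.5%), beside 58.6% of all bound protein-coding genes, and the median distances were 27 bp, 81.5 bp and 73 bp. Cytoplasmic genes also had more annotated starts, a median of 14 beside 11, which shortens the distance to the nearest. Measured to the canonical TSS alone, the medians were 78 bp and 96 bp, and 16 of 19 and 14 of 16 summits lay within 250 bp. The strongest peak had a median width of 1531 bp at cytoplasmic genes (642 to 3246 bp, the widest at GARS1), 983 bp at mitochondrial genes (389 to 1991 bp) and 865 bp over all bound protein-coding genes.

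The compartments differed more inside the genes than at their promoters. Peaks that overlapped the gene and had a summit over 1000 bp from the canonical TSS were counted as gene-body peaks, the strongest promoter peak left out. The summit itself could lie past the end of the gene, as at VARS1 and MARS1. The cytoplasmic genes held 187 in 783.5 kb of gene, or 23.9 per 100 kb, and the mitochondrial genes 34 in 1332 kb, or 2.55 per 100 kb. Per gene, the median was 18.3 per 100 kb over cytoplasmic genes (0 to 63.6) and 1.24 over mitochondrial genes (0 to 35.2). The same median over all bound protein-coding genes was 1.92. At least 1 such peak was present in 17 of 19 cytoplasmic and 9 of 16 mitochondrial genes, beside 60.8% of all bound protein-coding genes.

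AARS1 had the densest gene body, with 24 peaks or 63.6 per 100 kb. YARS1 followed with 23 peaks (53.7 per 100 kb), GARS1 with 26 (48.6) and IARS1 with 36 (43.0). MARS1, NARS1, SARS1 and VARS1 had 38.0, 37.1, 33.0 and 32.9 per 100 kb. Thus 8 cytoplasmic genes lay above 32.0, the 90th percentile of all bound protein-coding genes. VARS1, the lowest of the 8, was counted with a peak whose summit lay past the end of the gene. Of the mitochondrial genes, YARS2 alone lay above that percentile, with 10 peaks or 35.2 per 100 kb, and the next was AARS2 with 1 peak or 6.84. The groups nevertheless overlapped, since RARS1 and WARS1 had no gene-body peak and EPRS1, the strongest promoter, had 1 in 77.9 kb. FARS2, the longest gene at 568.1 kb, had 10 peaks or 1.76 per 100 kb.

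**Figure D4:**
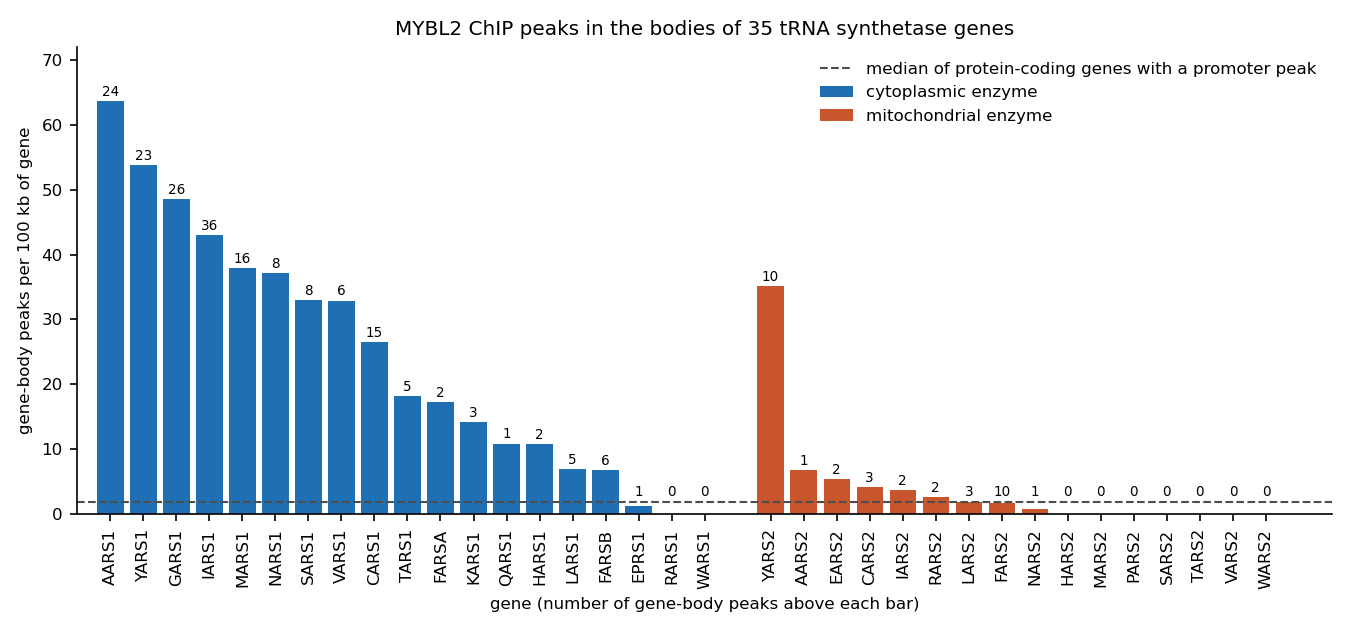
Gene-body peaks per 100 kb of gene (bars, with the number of peaks above each) in cytoplasmic (blue) and mitochondrial (red) genes, in descending order within each. The dashed line is the median of all bound protein-coding genes, 1.92; 16 cytoplasmic bars stand above it, and YARS2, at 35.2, stands apart from the other mitochondrial genes.

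These gene-body peaks were mostly weak: 181 of the 187 in cytoplasmic genes and 31 of the 34 in mitochondrial genes were under 6-fold. Their medians of 3.49 and 3.59 were close to the 3.53 of gene-body peaks over all bound protein-coding genes. The strongest in a synthetase gene, 22.6-fold in AARS1 (chr16:70284911-70287479), lay at its 3′ end over the promoter of EXOSC6, a subunit gene of the RNA exosome. In all, 5 of the 187 and 2 of the 34 lay at promoters of other genes. Over all bound protein-coding genes, 40083 of 43630 gene-body peaks were not at the promoter of another gene. Counted separately, 54 (28.9%) and 4 (11.8%) lay at an alternative start of the same gene, beside 17.1% over all bound protein-coding genes. A peak could be in both counts. Away from every annotated start of the gene, the medians were 10.95, 1.05 and 0.908 per 100 kb. The median local background under these peaks was 4.66 fragments in cytoplasmic genes, 3.84 in mitochondrial genes and 4.44 over all bound protein-coding genes, and its part in the result was not tested. With only peaks of −log10 q of at least 5, the gene medians fell to 8.24 and 0, and that of all bound protein-coding genes to 0.

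Genes with the response element and genes with many gene-body peaks were partly the same. The 11 cytoplasmic genes with a TGATGNAA word within 500 bp of the canonical TSS had a median of 37.1 gene-body peaks per 100 kb (0 to 63.6), and the 8 without had 12.5 (0 to 33.0). YARS2, the exception among mitochondrial genes, was also 1 of the 2 mitochondrial genes with a word, while the other, FARS2, had 1.76 per 100 kb, under the median of all bound protein-coding genes. With only peaks of −log10 q of at least 5, the medians of the 11 and the 8 cytoplasmic genes were 14.1 and 1.95. The ranges overlapped, with EPRS1 and WARS1 carrying a word and few or no gene-body peaks, and SARS1 and VARS1 the reverse. At the promoter itself the difference was small: cytoplasmic genes with the word near the summit had a median enrichment of 11.98-fold (11.1 to 15.4, 6 genes) and those without 10.6-fold (6.38 to 22.2, 13 genes).

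Other motifs were sought on both strands within 50 bp of the summit, at the 34 different strongest peaks of the 35 genes and at 10178 strongest promoter peaks of all protein-coding genes. No word searched is part of a word of another motif, but words can overlap. At CARS1 and MARS1 the end of the printed TGATGCAA and the bases after it match the MYB word CAACNG. Neither match lay wholly within 50 bp of the summit, so neither gene is in the MYB count that follows. A MYB site (TAACNG or CAACNG) was present at 5 of 34 (14.7%, interval 4.95 to 31.1), in IARS1, LARS1, YARS1, CARS2 and NARS2, beside 17.3% of all. The cell cycle genes homology region (TTTGAA or TTCGAA), an element of G2/M genes, was present at 0 of 34 (interval 0 to 10.3), beside 3.88%. The share of MYB sites was thus no higher at synthetase promoters than at bound promoters in general. By compartment it was 3 of 19 cytoplasmic (15.8%) and 2 of 16 mitochondrial peaks (12.5%). Within 100 bp of the summit it was 6 of 19 (31.6%, interval 12.6 to 56.6) and 2 of 16 (12.5%, interval 1.55 to 38.3), beside 30.8% of all.

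A CCAAT box (CCAAT) was found at 6 of 34 (17.6%, interval 6.76 to 34.5), in AARS1, CARS1, SARS1, TARS1, TARS2 and WARS2, beside 9.72% of all. A YY1 site (AAGATGGC) was found at KARS1, SARS2 and YARS2 (8.82%, interval 1.86 to 23.7), beside 2.41%. An E2F site (TTTCCCGC, TTTCGCGC, TTTGCCGC or TTTGGCGC) was found at RARS2 (2.94%, beside 1.75%). Neither the ETS core (CCGGAAGT, 3.48% of all) nor the NRF1 site (GCATGCGC, 1.25% of all) was found at any of the 34, each with an upper limit of 10.3%. With 100 bp on either side, the shares were 23.5% beside 30.8% for the MYB site, 32.4% beside 19.7% for the CCAAT box and 11.8% beside 4.13% for the YY1 site. In that window the CCAAT box was present at 4 of 19 cytoplasmic (21.1%) and 7 of 16 mitochondrial genes (43.8%), with overlapping intervals of 6.05 to 45.6 and 19.8 to 70.1.

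Genes that work beside the synthetases were described by lists of 3 to 5 genes, and every listed gene had a promoter peak, beside 59.4% of protein-coding genes and 78.9% of those with a CpG-rich promoter. With so few genes the intervals of these shares reached down to 29.2% (3 of 3) and 47.8% (5 of 5). The scaffold genes of the multi-synthetase complex had 13.1-fold (AIMP1), 11.9-fold (AIMP2) and 8.99-fold enrichment (EEF1E1). Of the genes that amidate or formylate mitochondrial tRNAs, GATC reached 22.5-fold, and GATB, QRSL1 and MTFMT had 9.09-fold, 9.12-fold and 8.24-fold. The 5 cytoplasmic elongation factor genes had a median of 14.8 (11.3 to 22.7, the highest at EEF2) and the 4 mitochondrial ones a median of 9.50 (7.56 to 11.01, the highest at TUFM). The editing and synthetase-like genes AARSD1, DTD1, DTD2 and TARS3 had a median of 6.42, and DTD1, at 4.72-fold, was under the 5-fold level that all 35 synthetase genes reached. Gene-body peaks also differed between the elongation factors. The medians were 63.8 per 100 kb (8.27 to 96.6) for the 5 cytoplasmic and 0.979 (0 to 3.95) for the 4 mitochondrial genes. The 4 editing and synthetase-like genes held 0. With only peaks of −log10 q of at least 5, the elongation factor medians were 53.2 (0 to 69.0) and 0. In that setting 1 cytoplasmic gene and all 4 mitochondrial genes held none, so the sets overlapped.

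All 14 listed genes of the amino acid response had a promoter peak (interval 76.8 to 100, beside 59.4% of protein-coding genes and 78.9% of those with a CpG-rich promoter, which all 14 had). Their median enrichment was 12.3-fold (5.45 to 24.2). The highest were the stress response regulators DDIT3 (24.2-fold) and CEBPB (21.8-fold) and the serine synthesis gene PHGDH (20.5-fold), and ATF4 itself had 16.4-fold. The asparagine synthetase gene ASNS had 7.06-fold and TRIB3, a target of ATF4 that dampens the response, the least, 5.45-fold. TGATGNAA lay within 500 bp of the canonical TSS in 9 of the 14 (64.3%, interval 35.1 to 87.2), close to the 57.9% of cytoplasmic synthetase genes, and within 100 bp of the summit in 3 (21.4%, interval 4.66 to 50.8), ATF3, ASNS and TRIB3. The median of gene-body peaks in these 14 genes was 16.4 per 100 kb. It was 10.06 without peaks at promoters of other genes, 9.02 in the 7 genes of at least 10 kb, and 5.06 with only peaks of −log10 q of at least 5.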

How the data were processed

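The labels and the study's methods describe single-end sequencing of 1 MYBL2 ChIP library and 1 input library from A673 cells, alignment to hg19, a filter on mapping quality and narrow peak calling against the input. The submitters' processing notes name Bowtie2 2.1.10 and MACS2 2.0.10, and the sources used here do not say which peaks were removed when the list was cleaned. The deposited fold enrichment is the authors' linear ratio of ChIP pileup to local background, with 1 added to each. The deposited −log10 p and −log10 q and the score derived from the latter are the authors' MACS2 values. The deposited summit offset gave the summit's position.

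Pileups were recovered as the whole number that solves both the fold enrichment and p (largest misfit 1.62e-05 in −log10 p at the strongest promoter peaks of the 35 genes, the next whole number missing by 0.439 or more). Genes were those of GENCODE lifted to GRCh37, and all 35 symbols matched. A canonical TSS was missing for 279 protein-coding genes, for which the outermost was used. The gene's strongest promoter peak is the one with the largest fold enrichment. Shares have exact (Clopper-Pearson) binomial and pileups exact Poisson intervals at 95%, which cover counting error only. All 35 genes were named, with full values for the 4 strongest and 3 weakest of each compartment and for genes whose strongest peak is shared with a coding gene on the other strand.

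Members and lists were chosen with earlier results of these data known. The searches for TGATGNAA other than within 50 bp of summits, and the gene-body counts, were chosen after seeing the data. Scripts (Python 3.11.15, NumPy 2.4.6, SciPy 1.17.1, pysam 0.24.0, Matplotlib 3.10.9) were tested on simulated data.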

Additional observations from a re-analysis of the deposited data

How the results depend on the processing

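No paired analysis was possible because there was 1 ChIP and 1 input library. The promoter shares, the medians of fold enrichment, their difference and the count of pairs stayed within their intervals or 1.5 times their value under stricter peaks, other windows, the summit rule, the outermost TSS, and without GARS1 and KARS1 or the histidine pair. The difference in medians ranged from 0.739 to 1.22, and was 3.5 fragments by pileup. The cytoplasmic gene was higher in 6 to 9 pairs. With the outermost TSS alone, GARS1 and MARS1 had no peak, which put the cytoplasmic share at 89.5%. A window from 5000 bp upstream brought in another, stronger peak at FARSA (25.2-fold) and CARS2 (27.6-fold). The share of cytoplasmic genes with TGATGNAA moved to 57.9% in the wider window around the canonical TSS, which searches more bases. Gene-body peaks of −log10 q of at least 5 gave medians of 8.24 and 0 per 100 kb, as fewer peaks were counted. In genes of 10 kb or more the medians were 22.4 and 1.81.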
